A study of Homo sapiens with 47 samples.

Results

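RNA levels of 6 HAP1 clones with mutated NUP58 were compared with those of a HAP1 line that had received Cas9 but no guide RNA. HAP1 is an adherent, near-haploid human cell line derived from a chronic myeloid leukemia line. The clones, C1 to C6, are labelled NUP58 mutated, and each line is 1 clone, grown from a single sorted cell after transfection with Cas9 and a pair of guide RNAs against NUP58, chosen among the smallest viable colonies and sequenced at the first passage. The control, EV (empty vector), is labelled as transfected with Cas9 without a guide and serves as the control for transfection and cloning with NUP58 intact. The labels do not say whether EV was grown from a single cell. Each line was represented by 4 experimental replicates, which gave 24 clone libraries and 4 EV libraries, 28 of the 47 libraries of the series. Unedited wild-type HAP1 cells (WT, 4 libraries) took no part in the comparison, and their levels are given beside it as a description. Because EV is a single line, what the clones share and what is particular to that EV line cannot be told apart by the clone against EV values alone.

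NUP58 is a subunit of the central channel of the nuclear pore, where it assembles with NUP54 and NUP62 and carries the phenylalanine-glycine repeats that bind transport receptors. Karyopherins (importins and exportins) carry proteins through this channel, and the small GTPase Ran gives the traffic its direction. A cell line grown from a single cell also carries whatever expression state and chromosome set that founder cell had, so lines derived from single cells can differ in genes unrelated to an edit.

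The deposited values were FPKM (fragments per kilobase of transcript and per unit of sequencing output), which scale a level for transcript length and library size. Of 57507 genes in the table, 13184 had a mean of at least 1 FPKM over the 28 libraries and were tested. A difference below is the mean of the 6 clone means minus the EV mean on log2(FPKM + 1). The added 1 shrinks the change of genes with low levels. A gene was called at a Benjamini-Hochberg adjusted p under 0.05 in limma over all tested genes, and a large difference is one over 1 on this log2 scale, a fold change over 2. The p-values measure the spread between libraries of a line, which may be technical, and the clones and EV are 7 lines in all. FPKM totals ran from 604053 to 654081 and genes above 0 from 18217 to 19456, with the 4 EV libraries inside the range of the clones on both measures. Read depth is unknown. Depth relative to the first EV library, read from the lowest FPKM values, was 0.87 to 1.003 in EV and 0.839 to 1.293 in the clones. Cell type markers were mixed. VIM, the mesenchymal filament protein, lay between 71.4 and 158 FPKM in the 28 libraries, but the mesenchymal SNAI2 reached at most 0.639 FPKM. The colon epithelial markers CEACAM5, CEACAM6 and TSPAN8 were listed at 0 in every library. Other epithelial genes were present, such as KRT18 at 36.1 to 46.4 FPKM and KRT8 at 8.91 to 14.9 FPKM in EV.

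The edited gene was lower in every clone. NUP58 (chr13:25301524-25365390, plus strand, GRCh38) stood at 35.3, 37.7, 45 and 43.2 FPKM in the EV libraries and between 7.98 and 28 FPKM in the 24 clone libraries, with a median of 12.5. No clone library reached the lowest EV library. The difference was -1.46 (SE 0.129, adjusted p = 2.82e-08), from a mean of 40.3 ± 4.57 FPKM (SD, n = 4) in EV to 14.9 ± 5.92 FPKM (SD, n = 24) in the clones, and WT stood at 41.3 FPKM. The clones from C1 to C6 had differences of -1.89, -1.94, -1.59, -0.64, -1.37 and -1.34, and these 6 values differed among themselves (F test among clones, adjusted p = 2e-05). C4 kept the most NUP58 RNA and C1 and C2 the least. The gene lies on chromosome 13, whose 237 tested genes had a median difference of -0.56 in C5 and -0.46 in C6 and between -0.1 and 0.03 in C1 to C4. Relative to that median, NUP58 was lower by 0.81 in C5 (a difference of -0.81) and by 0.88 in C6 (-0.88), against -1.88 in C1 and -0.65 in C4. An exact two-sided permutation test over the 7 line means gave p = 0.143, the smallest value that 7 lines allow.

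Over all tested genes, 536 were called higher in the clones (4.07% of those tested) and 540 lower (4.1%). The median difference over all tested genes was -0.017, and the median size of a called difference was 0.49, so most called differences were well under a doubling. Large differences were fewer: 64 genes higher (0.485%) and 40 lower (0.303%), which are 104 in all. Levels of the 24 clone libraries lay entirely above the 4 EV libraries for 68 genes (0.516%) and entirely below them for 51 (0.387%), and 115 of these 119 genes were also called. Of the 104 genes with large differences, 30 showed such a gap, 21 higher and 9 lower. When same-numbered replicates were treated as a block, 996 genes were called higher and 1060 lower, and all 1076 genes of the unblocked comparison were among them. With 1 EV library left out, the count of the unblocked comparison was lower. It was 609 without EV replicate 1, 621 without replicate 2, 849 without replicate 3 and 583 without replicate 4. With the 7 line means as the unit, 2 genes passed, SYT1 and TAL1, while 1316 genes had an unadjusted p under 0.05, among them 562 of the 1076 called genes.

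**Figure D1:**
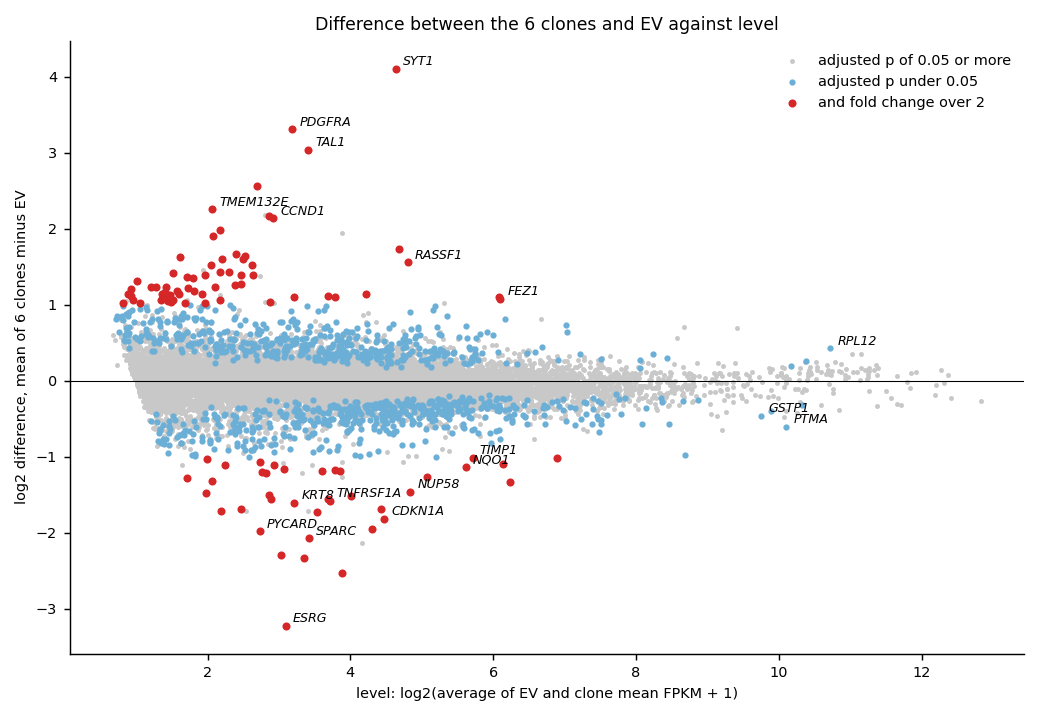
Each point is 1 of the 13184 tested genes, with its level on the horizontal axis (log2 of the average of the EV and clone mean FPKM, plus 1) and its log2 difference, mean of 6 clones minus EV, on the vertical axis. Grey points did not pass, blue points passed at an adjusted p under 0.05, and the 104 red points also had a fold change over 2. SYT1, PDGFRA and TAL1 stand apart at the top and ESRG at the bottom, and the points at the highest levels, such as RPL12 and PTMA, have small differences.

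The largest difference of all was in SYT1, synaptotagmin 1, the calcium sensor that triggers fusion of synaptic vesicles (chromosome 12). Its EV libraries held 2.24, 2.1, 0.637 and 1.52 FPKM, and the 24 clone libraries ran from 13.8 to 83.8 FPKM with a median of 44.9. Every clone library was above every EV library by a wide gap. The difference was 4.11 (SE 0.249, adjusted p = 1.3e-11), and the line values from 3.58 in C4 to 4.72 in C5 did not pass the F test among the clones (adjusted p = 0.0566). With the 7 line means as the unit its adjusted p was 0.0326. WT cells stood with EV, at 2.11 FPKM, and against WT the difference was 3.84.

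TAL1, a basic helix-loop-helix factor required for the formation of blood stem cells (chromosome 1), was the other gene that passed with line means as the unit (adjusted p = 0.001). The EV libraries held 1.63, 1.12, 1.12 and 1.17 FPKM and the clones 12.1 to 23.9 FPKM, with a median of 18.5. The difference was 3.04 (SE 0.138, adjusted p = 4.36e-14), with line values between 2.8 and 3.25 that did not pass the F test among the clones (adjusted p = 0.374). The WT libraries, however, averaged 18.1 FPKM, beside 17.9 FPKM in the clones and 1.26 FPKM in EV. Against WT the TAL1 difference was -0.03 (SE 0.142, adjusted p = 0.941), so EV was the line that stood apart. Its antisense neighbour RP1-18D14.7 overlaps it, and counting by strand is not given in the sources used here.

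The sequences before the annotated starts of these genes are shown because SYT1 and TAL1 were the pair that passed with each line counted once. They are the 250 bases before the start in RefSeq (GRCh38.p14), 5′ to 3′ on the gene's strand, with CG dinucleotides in capitals, the bases that DNA methylation acts on. RefSeq gives TAL1 more than 1 start, and which start HAP1 cells use was not tested.
SYT1, chr12:78864524-78864773, plus strand: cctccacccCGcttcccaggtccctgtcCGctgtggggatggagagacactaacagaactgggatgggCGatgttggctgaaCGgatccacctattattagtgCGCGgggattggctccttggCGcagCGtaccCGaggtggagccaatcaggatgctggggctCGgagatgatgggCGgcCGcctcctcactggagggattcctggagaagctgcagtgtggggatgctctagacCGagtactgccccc
TAL1, chr1:47232336-47232585, minus strand: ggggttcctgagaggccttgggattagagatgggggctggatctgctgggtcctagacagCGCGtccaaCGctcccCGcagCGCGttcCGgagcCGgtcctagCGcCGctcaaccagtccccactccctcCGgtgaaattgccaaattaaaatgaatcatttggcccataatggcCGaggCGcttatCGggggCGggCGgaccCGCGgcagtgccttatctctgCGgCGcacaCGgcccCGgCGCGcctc
TAL1, chr1:47231716-47231965, minus strand: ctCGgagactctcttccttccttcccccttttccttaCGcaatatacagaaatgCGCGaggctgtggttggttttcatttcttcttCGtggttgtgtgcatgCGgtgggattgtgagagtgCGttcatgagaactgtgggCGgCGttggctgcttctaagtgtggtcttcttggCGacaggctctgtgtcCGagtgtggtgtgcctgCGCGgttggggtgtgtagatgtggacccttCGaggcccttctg
The SYT1 window held 13 CG dinucleotides, more than 53.4% of the 35116 promoter windows of this length, whose median was 11. The TAL1 windows held 24 and 14, more than 76.3% and 55.2% of all windows. The motif GATAA, the core bound by GATA factors, searched on both strands as the only motif, occurred 2 times in the upstream TAL1 window and in neither of the other windows. At least 1 match was present in 20.4% of all windows and at least 2 in 3.87%. GATA2, which works with TAL1 in blood progenitors, was called higher with a smaller difference of 0.54 (SE 0.102, adjusted p = 0.0012), from 15.8 FPKM in EV to 23.7 FPKM in the clones and 16.8 FPKM in WT.

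**Figure D2:**
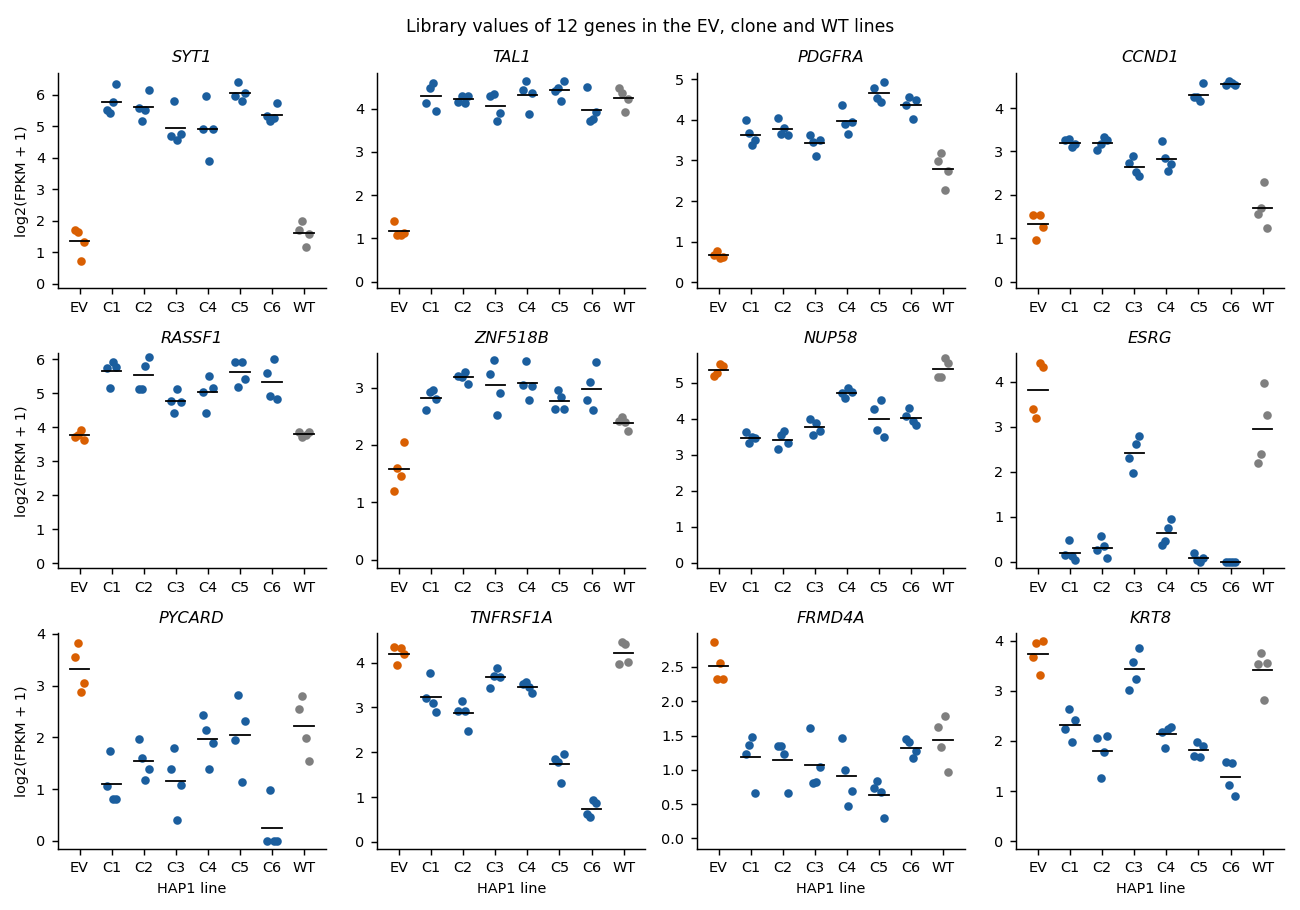
Levels of 12 genes as log2(FPKM + 1) in each library, by HAP1 line: EV in orange, C1 to C6 in blue and WT in grey, with 4 points per line and a bar at the line mean. SYT1 is low in EV and WT, TAL1 is low in EV and at a like level in the clones and WT, and NUP58 is lower in all 6 clones than in EV. ESRG, TNFRSF1A and KRT8 differ from clone to clone.

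PDGFRA, the receptor for platelet-derived growth factor found on mesenchymal cells (chromosome 4), also showed a gap with WT in between. EV libraries held 0.595, 0.717, 0.505 and 0.546 FPKM, the clones 7.63 to 29.5 FPKM with a median of 14.2, and WT 6.11 FPKM. Its difference was 3.31 (SE 0.123, adjusted p = 7.6e-16) against EV and 1.18 (adjusted p = 5.87e-06) against WT. By line it ran from 2.76 in C3 to 4.01 in C5, a spread that passed the F test (adjusted p = 1.33e-05).

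CCND1, cyclin D1, which drives entry into the cell cycle from G1, was low in EV at 1.88, 0.959, 1.92 and 1.39 FPKM and ranged from 4.45 to 23.6 FPKM in the clones, with a median of 8.53. The difference was 2.14 (SE 0.109, adjusted p = 4.64e-13). It was largest in C5 and C6, at 2.98 and 3.24, and smallest in C3, at 1.32 (F test adjusted p = 1.64e-10). WT resembled EV, at 2.36 FPKM. CCND2, cyclin D2, was called in the same direction with a difference of 1.43 (adjusted p = 0.000627), although its clone libraries, from 1.23 to 16.4 FPKM, overlapped the EV range of 0.967 to 1.77 FPKM.

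RASSF1, which encodes a Ras association domain protein known as a tumour suppressor (chromosome 3), was already well expressed in EV. Its levels were 12.2, 12.6, 14.2 and 11.3 FPKM there, against 20.3 to 65.3 FPKM in the clones (median 35.1), and WT stood at 13 FPKM. The difference of 1.56 (SE 0.2, adjusted p = 1.09e-05) ran from 1.01 in C3 to 1.88 in C1, and the clones did not pass the F test (adjusted p = 0.0768). An antisense gene, RASSF1-AS1, overlaps it.

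ZNF518B, a zinc finger protein gene, had the smallest SD of line means among the named genes with a large difference and no overlap. EV held 1.3, 2.04, 1.75 and 3.16 FPKM and the clones 4.74 to 10.2 FPKM (median 6.77). The line differences lay between 1.18 and 1.6 around a mean of 1.39 (SE 0.151, adjusted p = 1.06e-06), with an SD of the 6 line means of 0.16 and an adjusted p of 0.572 in the F test. WT was in between, at 4.22 FPKM, and the difference from WT was 0.59 (adjusted p = 0.00904).

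PLCB1, phospholipase C beta 1, which signals downstream of G protein-coupled receptors, held 0.646, 0.474, 1.52 and 0.432 FPKM in EV and 2.71 to 13.8 FPKM in the clones (median 5.22). The difference was 1.98 (SE 0.22, adjusted p = 1.45e-06), and WT stood at 1.47 FPKM. TMEM132E, a membrane protein gene, was barely present in EV, at 0.0563, 0.108, 0.184 and 0.314 FPKM, and ran from 1.26 to 20.6 FPKM in the clones (median 3.75). Its difference of 2.26 (SE 0.179, adjusted p = 3.38e-09) reached 4.08 in C6, against 1.25 in C3.

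SLC35F1, ESX1, MLF1 and LINC00403 were also among the 21 higher genes with a large difference and no overlap. SLC35F1, of a nucleotide sugar transporter family, held 2.14, 2.53, 2.41 and 1.56 FPKM in EV and 3.73 to 13.5 FPKM in the clones, a difference of 1.27 (adjusted p = 4.23e-05). ESX1, an X-linked homeobox gene, ran from 0.0716 to 0.353 FPKM in EV and from 0.394 to 13.9 FPKM in the clones, a difference of 1.63 (adjusted p = 3.62e-06) that was 3.28 in C6 and 0.31 in C3. MLF1 ran from 0.208 to 0.499 FPKM in EV and from 0.685 to 6.35 FPKM in the clones, a difference of 1.23 (adjusted p = 8.6e-05). SLC35F1, ESX1 and MLF1 did not pass against WT, with adjusted p-values of 0.0793, 0.0593 and 0.127. The long noncoding RNA LINC00403 was listed at 0 in 3 EV libraries and at 0.172 FPKM in the other, against 0.197 to 10.3 FPKM in the clones, and its call (difference 1.31, adjusted p = 0.0141) was lost without EV replicate 1, 2 or 4.

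Among the genes with a gap in the other direction, ESRG had the largest difference. ESRG is a long noncoding RNA of pluripotent stem cells that derives from an endogenous retrovirus (chromosome 3). Its EV libraries held 9.43, 8.07, 20.2 and 18.9 FPKM, while the clones ran from 0 to 5.95 FPKM with a median of 0.165. The difference was -3.22 (SE 0.174, adjusted p = 1.38e-12). C3 kept the most ESRG, with a difference of -1.4, and the other clones lay between -3.2 and -3.82 (F test adjusted p = 6.61e-08). WT averaged 7.76 FPKM. ESRG lies inside CACNA2D3 on the opposite strand.

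PYCARD, the adaptor ASC of the inflammasome, held 10.7, 13.1, 6.37 and 7.3 FPKM in EV and 0 to 6.08 FPKM in the clones (median 1.62). Its difference was -1.98 (SE 0.259, adjusted p = 1.36e-05), WT stood at 3.92 FPKM, and against WT it missed the threshold (-0.87, adjusted p = 0.0539). TNFRSF1A, the main receptor for tumour necrosis factor, held 19.2, 14.3, 19.1 and 17.4 FPKM in EV and 0.464 to 13.7 FPKM in the clones (median 7.07). Its difference was -1.58 (SE 0.132, adjusted p = 8.99e-09). The clones were far from alike in TNFRSF1A: C6 stood at -3.46 and C5 at -2.47, while C3 stood at -0.53 (F test adjusted p = 4.23e-12). WT, at 17.8 FPKM, matched the EV mean of 17.5 FPKM.

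FRMD4A, a scaffold protein of epithelial polarity, was higher in EV than in any other line. The EV libraries held 6.27, 4.01, 4.88 and 3.99 FPKM, the clones 0.232 to 2.06 FPKM (median 1.15) and WT 1.76 FPKM. The difference was -1.47 (SE 0.174, adjusted p = 3.34e-06) against EV and -0.39 (adjusted p = 0.243) against WT, and the clones did not pass the F test (adjusted p = 0.25).

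TIMP1, the inhibitor of matrix metalloproteases encoded on the X chromosome, held 65.4, 62, 66.3 and 71.7 FPKM in EV and 11.6 to 58.6 FPKM in the clones (median 42.2). Its difference of -1.01 (SE 0.104, adjusted p = 3.47e-07) was carried mostly by C6 at -2.32 and C5 at -1.68, with the other clones between -0.32 and -0.63. MTHFS, an enzyme of folate metabolism, held 42.4, 45.3, 44.6 and 54 FPKM in EV and 7.87 to 41.8 FPKM in the clones, a difference of -1.0 (adjusted p = 0.0118). The MTHFS call was lost without EV replicate 4 and without line C6, and the readthrough gene ST20-MTHFS overlaps it.

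The long noncoding RNA ELFN1-AS1 and LINC00371, which the annotation types as protein coding, completed the 9 lower genes of this kind. ELFN1-AS1 held 18.6 to 23.3 FPKM in EV and 0 to 17.8 FPKM in the clones, a difference of -1.52 (adjusted p = 0.00187) that was -3.69 in C6. LINC00371, on chromosome 13, held 7.94 to 10 FPKM in EV and 0.0456 to 6.69 FPKM in the clones, a difference of -1.5 (adjusted p = 1.37e-07) that was -3.25 in C6 and -1.94 in C5.

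The level of WT was set beside EV and the clones. For each of the 104 genes with large differences, WT was placed on the line from the EV mean (0) to the clone mean (1). The median position was 0.2. WT lay nearer to the clones than to EV in 21 of the 104 genes, 16 of the 64 higher ones and 5 of the 40 lower ones. TAL1 lay at 1.01, FRMD4A at 0.74, PDGFRA at 0.64, ESX1 at 0.6 and PYCARD at 0.56, while RASSF1 lay at 0.03, TMEM132E at 0.05, SYT1 at 0.06, NUP58 at -0.02 and TNFRSF1A at -0.01. BMP2 lay at 0.95 and TCEAL9 at 1.14. These genes were chosen by the EV values, so the positions are a description. With WT in place of EV, 373 genes were called higher and 407 lower.

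Many genes differed among the clones. The F test over C1 to C6, which does not use EV, called 2088 genes (15.8%). Of the 1076 genes called against EV, 525 also varied among the clones (48.8%), and of the 104 with large differences 79 did (76%). Against EV, C6 had 2354 calls (17.9%), C5 1869 (14.2%), C2 584 (4.43%), C1 392 (2.97%), C4 139 (1.05%) and C3 63 (0.478%). All 6 counts rest on the same EV libraries. Leaving out EV replicate 1, 2 or 4 gave 229 to 239 calls in C1, 331 to 365 in C2 and 69 to 83 in C4. C2 had 379 calls without C2 replicate 2, C3 had 41 without C3 replicate 1, and C4 had 81 and 86 without C4 replicates 2 and 4. Without C5 and C6 together, 349 genes were called in the mean of the other clones, 164 higher and 185 lower, and 329 of these were among the 1076. Without C3, the clone with the fewest calls, the number of genes with no overlap was 213, and without EV replicate 3 it was 253.

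**Figure D3:**
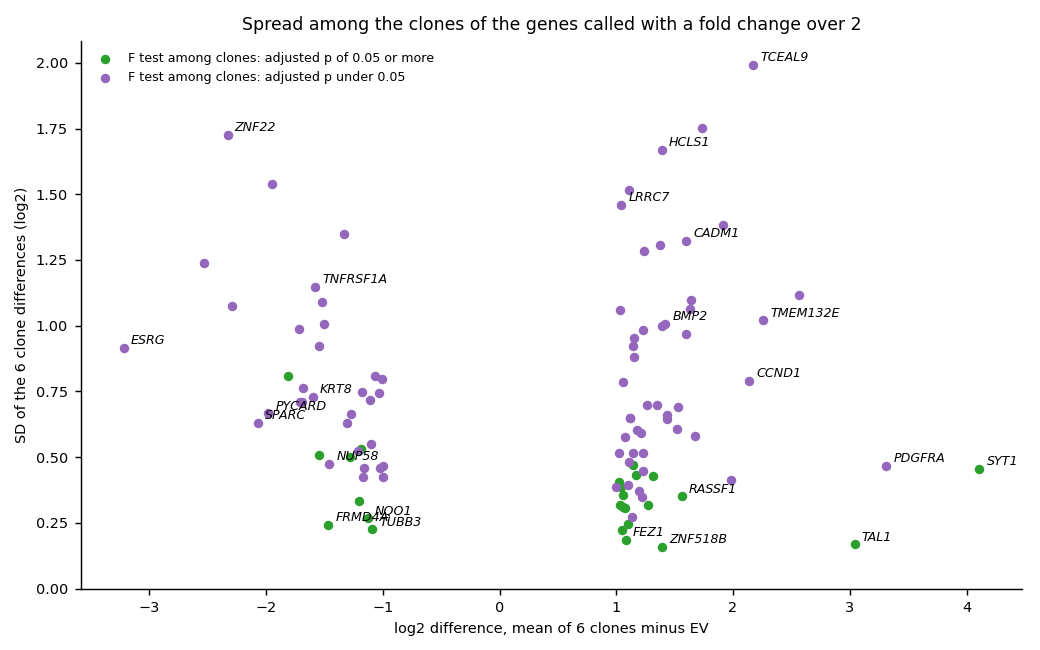
The 104 genes called with a fold change over 2, with the log2 difference of the mean of 6 clones from EV on the horizontal axis and the SD of the 6 clone differences on the vertical axis. The 25 green genes did not pass the F test among the clones and the 79 purple genes did. TAL1 and ZNF518B combine a large difference with a small spread, while TCEAL9, ZNF22, HCLS1 and LRRC7 have a spread about as large as the difference.

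In the genes with a large mean difference that varied most among clones, some lines stood much closer to EV than others. TCEAL9, an X-linked gene of the transcription elongation factor A like family, had a difference of 2.17 (adjusted p = 1.06e-10), but its line values were 5.53 in C4, 2.89 in C5, 2.66 in C1, 1.31 in C2, 0.61 in C3 and 0.02 in C6. Its EV libraries held at most 0.279 FPKM and WT 5.8 FPKM. HCLS1, a cortactin-like protein of blood cells, was at 4.2 in C4 and 2.63 in C5, and at 0.76 or less elsewhere. LRRC7, a protein of the postsynaptic density, stood at 3.22 in C5 and 2.43 in C6 and at -0.34 in C4. ZNF22, a zinc finger protein gene, held 12.5 to 15.3 FPKM in EV, and its differences were near -3.6 in C2, C4 and C6 (-3.58, -3.61 and -3.56) and -2.92 in C5, while C1 stood at -0.55 and C3 at 0.25. WT averaged 5.05 FPKM for ZNF22.

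Other large differences, named for the highest p in the F test among the clones, did not pass it. This does not show that their levels were equal. FEZ1, a protein of axonal transport, had a difference of 1.08 (adjusted p = 0.00338) with line values from 0.84 to 1.34, and RBM24, an RNA-binding splicing regulator, 1.10 (adjusted p = 0.00528) with line values from 0.73 to 1.38. The transcribed pseudogene SLC7A5P1, which shares sequence with SLC7A5, was at 1.05 (adjusted p = 0.0148) and its call was lost without EV replicate 3 or 4. Lower in all clones were TUBB3, a neuronal beta tubulin, at -1.09 (adjusted p = 0.0301, line values from -0.73 to -1.41), and NQO1, a quinone reductase, at -1.13 (adjusted p = 0.00385, line values from -0.77 to -1.59). The RBM24 call was lost without EV replicate 3. For each of these 5 genes at least 1 clone library overlapped the EV libraries. The TUBB3 call was lost without EV replicate 1, 2 or 4.

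HOX genes, which set position along the body axis, had the highest median of the lists examined, 0.43 over 25 tested members. Of these, 8 were called higher and 1 lower, against 4.07% higher and 4.1% lower over all tested genes, and 21 had a difference above 0. HOXC10 had a difference of 1.12 (SE 0.147, adjusted p = 1.36e-05), from 6.72 to 17 FPKM, HOXD13 one of 0.94 (adjusted p = 2.45e-05), from 7.06 to 15.8 FPKM, and HOXA10 one of 0.75 (adjusted p = 0.0118), from 16.8 to 29.6 FPKM. HOXA13 stood at 18.8, 18.6, 19.4 and 17.2 FPKM in EV and at 20.2 to 64.6 FPKM in the clones (difference 0.91, adjusted p = 4.12e-05), without overlap. WT lay with EV in these genes, at 5.8, 6.24, 17.1 and 19.4 FPKM. The other called members were HOXD11, HOXA11, HOXD8 and HOXD4, with differences from 0.45 to 0.71, and HOXA7, the lower one, at -0.33 (adjusted p = 0.00836). The HOXA7 call was lost without EV replicate 4 and the HOXA10 call without EV replicate 3. Without C5 and C6, 4 members were called higher and 0 lower, and with WT in place of EV 6 higher and 0 lower. HOXC10 was smallest in C3 (0.35) and largest in C5 (2.08), and HOXD13 was -0.2 in C6.

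BMP and TGF-beta signalling had 6 of 35 tested members called higher and 0 lower (4.07% and 4.1% over all tested genes), with a median of 0.18. The ligand BMP2 stood at 0.274 FPKM in EV and 3.47 FPKM in the clones (difference 1.42, adjusted p = 0.000466), though WT already held 2.45 FPKM and BMP2 did not pass against WT. BMP2 was at 3.21 in C6 and 1.95 in C5, and between 0.53 and 1.15 in the other clones (F test adjusted p = 3.19e-06). Its call was lost without C5 and C6. NOG, the secreted BMP antagonist noggin, had a difference of 1.07 (adjusted p = 0.0029), INHBB, an activin subunit, one of 1.00 (adjusted p = 0.000386), and the inhibitory SMAD7 one of 0.65 (adjusted p = 0.00916). Against WT, NOG (adjusted p = 0.162) and INHBB (adjusted p = 0.27) did not pass either, while SMAD7 did (adjusted p = 0.0495). The receptor BMPR2 (0.50) and the target ID2 (0.41) were also called. Without EV replicate 1 or 2 the number called was 3, and SMAD7 was among the calls lost. Without C5 and C6 it was also 3.

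Wnt signalling had 5 of 30 members called higher and 0 lower (4.07% and 4.1% over all tested genes), with a median of 0.13. With the replicate block 7 were called higher and 1 lower. Besides the target CCND1, these were the receptors FZD8 (difference 1.13, adjusted p = 5.49e-06) and FZD1 (0.74, adjusted p = 0.000135), the coreceptor LRP6 (0.47) and the secreted inhibitor SFRP1 (0.68, adjusted p = 0.0176). FZD8 libraries did not overlap, with EV between 0.579 and 0.916 FPKM and the clones between 1.44 and 4.5 FPKM. SFRP1 was uneven, at 1.62 in C2 and 0.01 in C3, and its WT mean of 1.84 FPKM lay below the EV mean of 3.72 FPKM. The SFRP1 call was lost without EV replicate 1, 3 or 4.

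Genes of axon guidance and neural adhesion had 6 of 37 members called higher and 2 lower (4.07% and 4.1% over all tested genes), with a median of 0.1. Without EV replicate 3 or 4 the number called was 5 and 4, and without C5 and C6 it was 3. The adhesion molecule CADM1 had a difference of 1.60 (adjusted p = 4.32e-06) that was 3.12 in C4, 2.8 in C1 and -0.51 in C3. EPHA4, an ephrin receptor, had a difference of 0.92 (adjusted p = 0.000848). Its line values ran from 0.48 in C6 to 1.15 in C2 and did not pass the F test among the clones (adjusted p = 0.251). CHL1 stood at 0.95 (adjusted p = 0.00816), a call lost without EV replicate 3 or 4. The neuroligin NLGN4X was listed at 0 in all 4 EV libraries and averaged 2.41 FPKM in the clones, most of it from C6, and NRP1 and EPHB2 were also called higher. SEMA3F (-0.62) and PLXNB1 (-0.4), a guidance ligand and a receptor, were called lower. Among 8 tested clustered protocadherins (median 0.14), PCDHB2, PCDHB5 and PCDHB8 were called higher, with differences of 0.79, 0.46 and 0.40, and PCDHGC3 lower at -0.85. PCDHB2 stood at 2.44 in C5 and 1.93 in C2, and between -0.37 and 0.68 in the other clones (F test adjusted p = 7.81e-12). Its call was lost without line C5. The PCDHB8 call was lost without any 1 of the 4 EV libraries and the PCDHB5 call without EV replicate 2. Members of these clusters share exons or near-identical sequence, so their FPKM are uncertain. Of 18 tested synaptotagmins and exocytosis SNAREs (median -0.07), 2 were called higher and 1 lower. SYT2 was called higher beside SYT1, at 1.00 (adjusted p = 0.00297), from 1.2 to 3.56 FPKM without overlap.

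**Figure D4:**
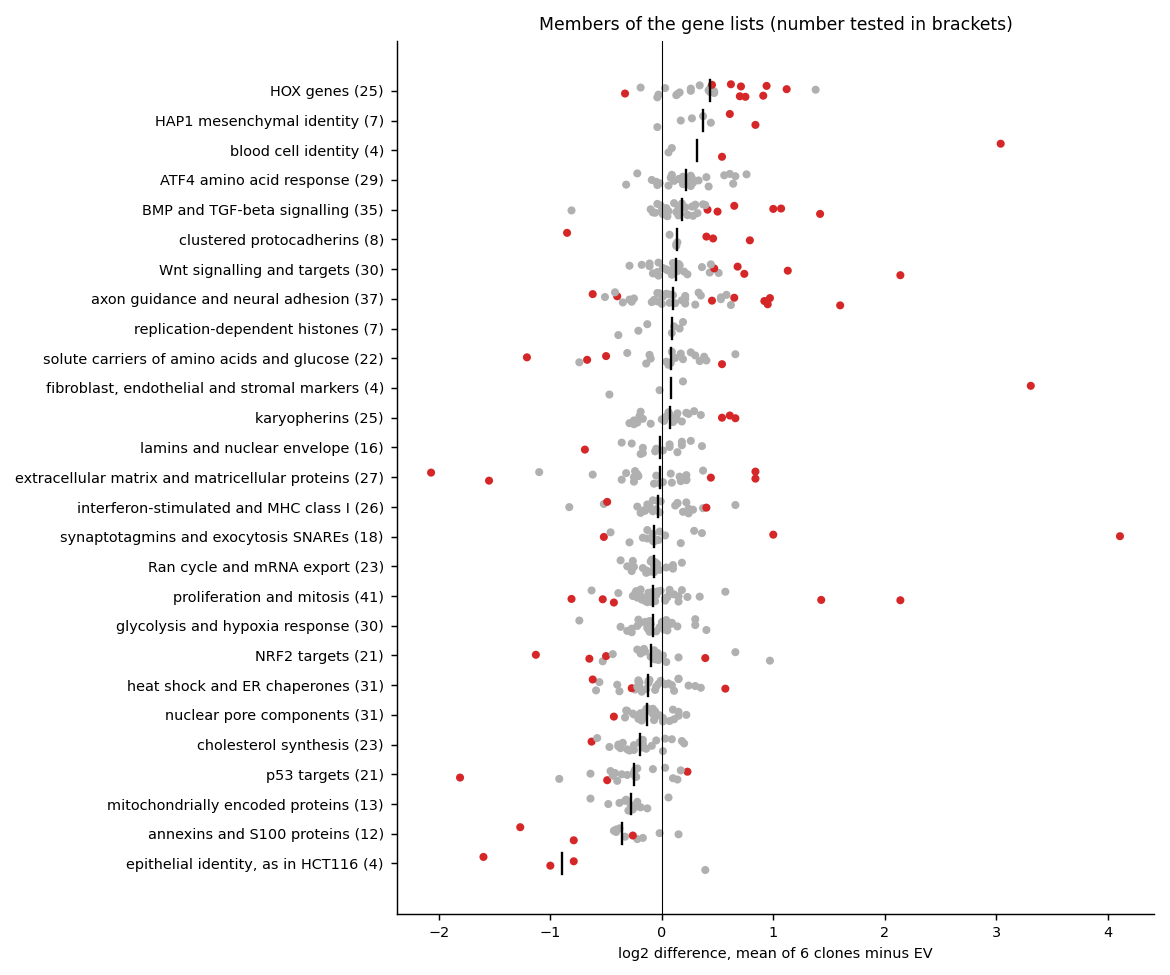
Log2 difference (mean of 6 clones minus EV) of each tested member of the 27 gene lists, with the number tested in brackets. Red members were called, grey members were not, and black bars mark the list medians. HOX genes have the highest median, 0.43, and the 4 tested epithelial genes the lowest, -0.89. Nuclear pore components have a median of -0.13.

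Of 31 tested nuclear pore components other than NUP58, 0 were called higher and 1 lower, NUP210, a membrane ring subunit, at -0.43 (adjusted p = 0.0382). Its EV libraries ran from 42.2 to 63.6 FPKM and the clones from 24.5 to 56.7 FPKM, and its call was lost without EV replicate 1, 2 or 4. The median of the list was -0.13, and 8 of the 31 had a difference above 0. Of 25 tested karyopherins (median 0.07), 3 were called higher and 0 lower. Over all tested genes 4.07% were called higher and 4.1% lower. With same-numbered replicates as a block, 1 pore component was called higher and 4 lower, and 6 karyopherins higher and 1 lower. KPNA4, an importin alpha, held 13.6, 12.9, 15.5 and 12.8 FPKM in EV and 15.7 to 27.7 FPKM in the clones without overlap (difference 0.66, SE 0.103, adjusted p = 0.000154), and the clones did not pass the F test (adjusted p = 0.322). TNPO1, transportin 1, held 46.6, 45.3, 52.5 and 52.3 FPKM in EV and 52.3 to 104 FPKM in the clones (difference 0.61, adjusted p = 0.00734). KPNA5 was called at 0.54 (adjusted p = 0.0111), and this call was lost without EV replicate 4 and without C5 and C6. WT stood at 15.1 FPKM for KPNA4 and 53.1 FPKM for TNPO1. Of 23 genes of the Ran cycle and mRNA export (median -0.07), 0 were called in either direction at an adjusted p under 0.05 (0 higher and 2 lower with the block), and of 16 lamins and nuclear envelope proteins (median -0.02) 1 was called, LMNA at -0.69 (adjusted p = 0.00639), with C3 at -0.22 and C2 at -0.96. With the block 2 of these 16 were called lower.

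Of 18 listed epithelial genes, 4 were tested and 3 were called lower (median -0.89): KRT8 at -1.60 (SE 0.161, adjusted p = 2.86e-07), ESRP1 at -1.0 (adjusted p = 0.000951) and KRT18 at -0.79 (adjusted p = 2.41e-06). Over all tested genes 4.1% were called lower and 4.07% higher, and a list with 4 tested members is small. KRT8 and KRT18 are the keratin partners of simple epithelia, and ESRP1 is a splicing regulator of epithelial cells. The fourth, the adhesion molecule EPCAM, stood at 0.39 (adjusted p = 0.0829), from 0.621 FPKM in EV to 2.8 FPKM in the clones, whose highest library held 16.7 FPKM. KRT18 held 36.1, 37, 43 and 46.4 FPKM in EV and 16.2 to 35.7 FPKM in the clones without overlap. KRT8 held 11.8, 14.5, 8.91 and 14.9 FPKM in EV, and among the clones C3 kept a level near EV (difference -0.3) while C6 stood at -2.45. The KRT8 and KRT18 genes overlap in the annotation and have many pseudogenes, which makes their FPKM less certain. The summed level of the epithelial list was 58.5 to 71.4 FPKM in EV and 23.5 to 53.2 FPKM in the clones. The mesenchymal list had 2 of 7 members called higher (median 0.37), FN1 at 0.84 (adjusted p = 0.0314) and ZEB2 at 0.61 (adjusted p = 0.000567). The FN1 call was lost without EV replicate 1, 3 or 4 and with WT in place of EV, which left 1 called member each time, and it was also lost without C2, C5 or C6. With the replicate block 4 members were called higher. Blood cell genes had TAL1 and GATA2 called among 4 tested of 16 listed (median 0.31), with PTPRC, SPI1, GATA1 and MPO at 0 in all 28 libraries. Of the fibroblast, endothelial and stromal markers, PDGFRA was called among 4 tested of 10 listed (median 0.09), and COL1A2 was at 0 in all 28 libraries. In RNA from whole cultures, fewer cells of a kind and less RNA per cell cannot be told apart.

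Matrix and calcium-binding proteins were mixed, and over all tested genes 4.07% were called higher and 4.1% lower. SPARC, a secreted matricellular protein, held 18.5, 17.6, 9.62 and 18.4 FPKM in EV and 1.17 to 12 FPKM in the clones (median 2.64). Its difference was -2.07 (SE 0.188, adjusted p = 4.86e-08), from -1.04 in C4 to -2.6 in C2, and WT stood at 18.2 FPKM. CYR61, a target of YAP, was called at -1.55 (adjusted p = 0.0125), but its EV libraries split into 22.2 and 44.7 FPKM in replicates 1 and 2 and 6.37 and 4.15 FPKM in replicates 3 and 4, against 1.05 to 13.3 FPKM in the clones. Its call was lost without EV replicate 1 or 2. Over 27 tested matrix genes (median -0.02), 3 were called higher, FN1, SPOCK1 (0.84, adjusted p = 0.0234) and LAMA4 (0.44, adjusted p = 0.0349), and 2 lower. Without EV replicate 1 or 3, and with WT in place of EV, 0 matrix genes were called higher, and the SPOCK1 call was lost without any 1 of the 4 EV libraries. Annexins and S100 proteins had 0 of 12 members called higher and 3 lower (median -0.35): S100A6 at -1.27 (adjusted p = 0.00113), ANXA1 at -0.79 (adjusted p = 0.0105) and ANXA5 at -0.26 (adjusted p = 0.0197). The ANXA1 call was lost without EV replicate 2 and the ANXA5 call without EV replicate 1 or 2, while 5 members were called lower without EV replicate 3. ANXA1 averaged 4.16 FPKM in EV, 2.07 FPKM in the clones and 10.8 FPKM in WT.

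CDKN1A, which encodes the cell cycle inhibitor p21 and is a p53 target, showed the same split of EV. Its EV libraries held 59.6 and 61.9 FPKM in replicates 1 and 2 and 8.66 and 8.12 FPKM in replicates 3 and 4, the clones ran from 1.74 to 26.6 FPKM (median 4.38), and WT held 72.4 FPKM in replicate 1 and 8.52 to 13.3 FPKM in the others. The difference of -1.81 (SE 0.463, adjusted p = 0.0139) became -1.35 (adjusted p = 0.125) at its smallest when 1 library was left out, and the call was lost without EV replicate 1 or 2. Beside CDKN1A, BAX was called lower at -0.49 (adjusted p = 0.0207) and RRM2B higher at 0.23 (adjusted p = 0.044) among 21 tested p53 targets (median -0.25). The share over all tested genes was 4.07% higher and 4.1% lower, here and for the proliferation genes below. The BAX call was lost without EV replicate 1, 2 or 4 and the RRM2B call in 17 of the 28 comparisons that left out 1 library. Of the p53 targets, 0 were called without EV replicate 2 or with WT in place of EV, and 1 higher and 4 lower with the replicate block. The RNA of proliferation genes had 2 of 41 members called higher, the cyclins CCND1 and CCND2, and 3 lower (median -0.08): CCNE2 at -0.81 (adjusted p = 0.0431), CCNE1 at -0.53 (adjusted p = 0.0134) and AURKA at -0.43 (adjusted p = 0.0266). The CCNE1 call was lost without EV replicate 3 or 4. With the replicate block 3 proliferation genes were called higher and 5 lower. CCNE2 was at -2.18 in C6 and between -0.26 and -1.07 in the others, and it lost its call in the leave-one-out comparisons of all 4 EV libraries.

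The counts of the stress and metabolic lists stand beside 4.07% called higher and 4.1% lower over all tested genes. Of 29 ATF4 target genes of the amino acid response, 0 were called (median 0.22). ASNS, asparagine synthetase, averaged 91.9 ± 52.5 FPKM (SD, n = 4) in EV and 137 ± 131 FPKM (SD, n = 24) in the clones, a difference of 0.26 with an SE of 0.612. Of 21 NRF2 targets (median -0.1), 3 were called lower, among them NQO1 and HMOX1 (-0.5, adjusted p = 0.0105), and 1 higher, GCLC (0.39, adjusted p = 0.0269). The HMOX1 call was lost without EV replicate 1 or 2 and the GCLC call without EV replicate 1, 3 or 4. Of 31 heat shock proteins and ER chaperones (median -0.12), DNAJB9 was called higher (0.57) and SDF2L1 (-0.62) and DNAJC3 (-0.27) lower. Leaving out any 1 EV library left 1 called member, SDF2L1, and DNAJC3 lost its call in 18 of the 28 comparisons that left out 1 library. Of 23 cholesterol synthesis genes (median -0.2), 1 was called, NSDHL on the X chromosome at -0.63 (adjusted p = 0.0347), with C5 at -1.53, and this call was lost without any 1 of the 4 EV libraries. Of 30 genes of glycolysis and the hypoxia response (median -0.08), 0 were called. A list of solute carriers had 22 tested members (median 0.09). SLC43A3 (-1.21, adjusted p = 0.00057), SLC38A5 (-0.67) and SLC6A8 (-0.5) were called lower and the glutamate carrier SLC1A3 higher (0.54, adjusted p = 0.0118). Without EV replicate 4 only 1 carrier was called, SLC43A3, the SLC38A5 call was also lost without EV replicate 3, and the SLC1A3 call without EV replicate 1. Of 26 interferon-stimulated and MHC class I genes (median -0.03), IFIT5 was called higher (0.4, adjusted p = 0.00185) and STAT2 lower (-0.49, adjusted p = 0.0194), the latter lost without EV replicate 1 or 4. The 13 mitochondrially encoded protein genes (median -0.28) and 7 replication-dependent histone genes (median 0.09) had 0 called. With the replicate block, calls were 1 for the ATF4 targets, 7 for the NRF2 targets, 6 for the heat shock proteins and chaperones, 3 for cholesterol synthesis, 2 for glycolysis and hypoxia, 4 for the interferon-stimulated and MHC class I genes and 2 for the mitochondrially encoded proteins. Mitochondrial RNA varied widely within groups, with a sum of 33231 to 46548 FPKM in EV and 19419 to 75771 FPKM in the clones.

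Among the most abundant called genes the differences were small and included ribosomal proteins. RPL12, RPL5, RPL37 and RPL22, proteins of the large ribosomal subunit, were called higher. RPL12 had a difference of 0.43 (SE 0.116, adjusted p = 0.0195), from 1432 ± 158 FPKM (SD, n = 4) in EV to 1946 ± 303 FPKM (SD, n = 24), and RPL5 and RPL37 had differences of 0.26 and 0.2. RPL22 held 320, 317, 293 and 307 FPKM in EV and 330 to 425 FPKM in the clones without overlap (0.30, SE 0.053, adjusted p = 0.000629). RPL22L1, the paralog of RPL22, chosen after its value was seen, stood at -1.02 (SE 0.14, adjusted p = 2.77e-05), from 156 FPKM in EV to 80.2 FPKM in the clones and 147 FPKM in WT. Ribosomal protein genes have many pseudogene copies that can take part of their reads. The calls of RPL12, RPL5 and RPL37 were lost without EV replicate 3 or 4, and without C5 and C6. The RPL5 call was also lost without EV replicate 1 or 2 and the RPL37 call without EV replicate 1. RPL37 lost its call in 10 of the 28 comparisons that left out 1 library. PTMA, prothymosin alpha, a small acidic nuclear protein, was lower without overlap, from 1383, 1460, 1169 and 1260 FPKM in EV to 591 to 1139 FPKM in the clones (difference -0.6, SE 0.104, adjusted p = 0.000517), and the clones did not pass the F test (adjusted p = 0.353). GSTP1, a glutathione transferase, stood at -0.46 (adjusted p = 0.0023). The mitochondrial ATP/ADP carrier SLC25A5 on the X chromosome, at -0.4 (adjusted p = 0.00236), was at -1.22 in C5, and TPT1 on chromosome 13, at -0.31 (adjusted p = 0.00629), was at -0.79 in C5 and -0.74 in C6 and near 0 in C1, C3 and C4. The TPT1 call was lost without EV replicate 2, without line C5 and without line C6, and the SLC25A5 call without line C5.

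On chromosome 13, 38 of 237 tested genes were called lower (16%) and 6 higher, and on the X chromosome 50 of 457 were called lower (10.9%) and 12 higher, against 4.1% lower over all genes. The median difference of the X chromosome genes was -0.53 in C5 and between -0.07 and 0.04 in the other clones. On the 21 other chromosomes the medians ran from -0.24 to 0.15 in C5 and from -0.11 to 0.17 in C6. Of the 44 genes of chromosome 13 called in the mean of 6 clones, 9 were called without C5 and C6, and of the 62 on the X chromosome 13 were. Calls on the other chromosomes were also fewer without these lines, at 307 of 970.

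**Figure D5:**
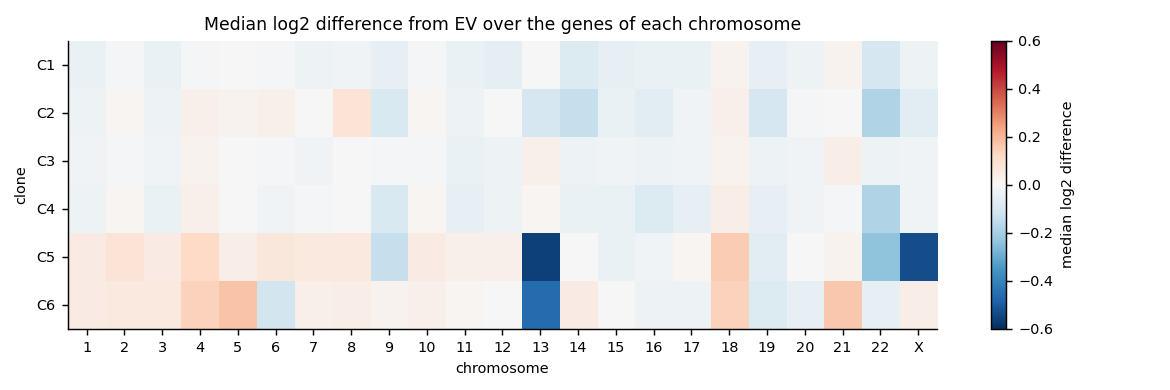
Median log2 difference from EV over the tested genes of each chromosome (columns) in each clone (rows), with blue for below and red for above EV. Chromosome 13 is low in C5 and C6, at -0.56 and -0.46, and the X chromosome is low in C5, at -0.53.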

How the data were processed

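Total RNA of HAP1 cells at about 70% confluence was sequenced by the authors as read pairs. Per the labels and the study's methods, reads were aligned with STAR to GRCh38.p13 and quantified with RSEM, and the deposited values are FPKM per gene, with no counts, so read depth is unknown and was estimated only relative to the first EV library. Tool versions, and whether counting used strand, are not given in the sources used here. Libraries were matched to lines through the labels. Of 57507 genes, 98.1% matched GENCODE 44, from which positions were taken, and 55 tested genes share a symbol with another gene.

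The 13184 genes with a mean of at least 1 FPKM over the 28 libraries were fitted as log2(FPKM + 1) in limma 3.58.1 (R 4.3.3), with 1 mean per line and an intensity trend. The contrast was the mean of the 6 clone lines minus EV, and an F test compared the 6 clones. Calls were made at a Benjamini-Hochberg adjusted p under 0.05. The code was tested on simulated data. Lists were described by counts and medians, with no set test. The comparison, the gene lists and the naming rule were chosen with earlier results of these data known.

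Named genes were NUP58, up to 12 genes in each direction with the largest differences among those called with a fold change over 2 and no overlap (9 lower genes qualified), the 4 most abundant called genes in each direction, up to 4 called members of each list, and the 3 genes in each direction with the highest and lowest F test p among the clones, 95 genes in all. RPL22L1 and the remaining called list members were added after their values were seen. Single values of a few list members are not reported here. Alternatives were another pseudocount and filter, 2 other scalings, a fit without trend, an unmoderated test, line means, a replicate block, WT or WT with EV as the control, and each line and library left out. Leaving out C5 and C6 together was chosen after seeing the data.

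The replicate numbers were treated as pairs from the data, since the labels do not say what they mark. Deviations of the same-numbered clone mean and EV library correlated at 0.207 to 0.498 over genes in 4 of 4 pairs. For single clones 17 of 24 pairs exceeded 0.1.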

Additional observations from a re-analysis of the deposited data

Results flagged for a closer look

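Among the 12 higher and 9 lower genes named for a large difference with no overlap, 14 of 21 varied among the 6 clones in their difference from EV. By adjusted p of the F test these were TNFRSF1A (4.23e-12), TIMP1 (4.4e-11), CCND1 (1.64e-10), LINC00371 (3.04e-10), TMEM132E (1.55e-08), ESX1 (3.46e-08), ESRG (6.61e-08), PDGFRA (1.33e-05), NUP58 (2e-05), ELFN1-AS1 (2.46e-05), PYCARD (0.0025), MLF1 (0.00421), MTHFS (0.048) and PLCB1 (0.0487). In C5 and C6 the differences of CCND1, TIMP1, TNFRSF1A, LINC00371, ESX1, ESRG, PDGFRA, ELFN1-AS1 and MTHFS were the 2 largest in size of the 6 clones. For TMEM132E, NUP58, PYCARD, MLF1 and PLCB1 they were not.

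In 10 of 147 groups of 4 libraries (these 21 genes in EV and the 6 clones) 1 library stood far from the other 3, where chance gives about 1 in 20. SYT1 had a library at 55 FPKM in C3 beside 22.5 to 25.8 FPKM. TMEM132E had one at 1.26 FPKM in C3 beside 1.93 to 1.97 FPKM, and SLC35F1 one at 7.55 FPKM in C3 beside 3.73 to 4.11 FPKM. TAL1 had a library at 1.63 FPKM in EV beside 1.12 to 1.17 FPKM. PLCB1 had one at 12.4 FPKM in C1 beside 4.93 to 5.67 FPKM. LINC00403 stood at 0.172 FPKM in a single EV library with the other 3 at 0, at 10.3 FPKM in C1 beside 2.03 to 3.09 FPKM, at 3.23 FPKM in C4 beside 0.379 to 0.775 FPKM and at 4.96 FPKM in C6 beside 0.881 to 1.22 FPKM. PYCARD stood at 0.977 FPKM in a single C6 library with the other 3 at 0.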

How the results depend on the processing

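NUP58 kept its direction under every alternative (-1.52 to -1.40 with 1 library left out) and lost its call only with line means as the unit, where its difference was -1.46 (adjusted p = 0.444). With 1 library left out at a time, the calls of the mean of 6 clones ran from 583 to 1202, large differences from 95 to 120, genes with no overlap from 119 to 253, genes varying among clones from 1616 to 2360, and calls of single clones from 229 to 385 (C1), 331 to 540 (C2), 41 to 65 (C3), 69 to 137 (C4), 1378 to 1643 (C5) and 1790 to 2105 (C6). The highest count of genes with no overlap was without EV replicate 3. With the replicate block, paired by number, calls were 2056 for the mean, 846, 1252, 146, 352 and 2854 for C1 to C5 and 3162 among clones, and it changed no call of the named genes. With line means as the unit, 2 genes passed in all and 2 with a large difference. With WT and EV together as the control 2310 genes were called. With WT in place of EV 71 genes did not overlap, and TAL1 (-0.03) and TCEAL9 (-0.31) changed direction and lost their calls, and 27 other named genes lost their calls in the same direction. Without line C3 213 genes did not overlap, and without C5 and C6, 349 were called. A minimum of 5 FPKM left 53 large differences and 246, 37 and 62 calls in C1, C3 and C4. With a pseudocount of 0.1 there were 226 large differences. Apart from fewer genes or samples tested, the cause was not tested. The other fits (2 scalings, no filter, no trend, the unmoderated test, all 32 HAP1 libraries and each other line left out) kept the counts of calls within 1.5 times. Of the 95 named genes 57 were called in all 28 leave-one-out comparisons. With no counts, the FPKM give no limit of detection, and 35 of the 104 large differences had an EV mean under 1 FPKM.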

Other observations

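Among the large differences of genes outside the lists, the homeobox genes NKX2-1 and NKX2-4 were called higher, with differences of 1.26 (adjusted p = 0.0168) and 1.18 (adjusted p = 2.01e-05), and so were the ETS factor ETV1 (1.60, adjusted p = 0.000301), the corepressor TLE1 (1.35, adjusted p = 1.45e-06) and the deacetylase HDAC9 (1.10, adjusted p = 2.66e-06), the last at a high level of 41.1 FPKM in EV and 93 FPKM in the clones. The imprinted genes DLK1 and IGF2 were called higher as well, DLK1 at 1.73 (adjusted p = 0.000866), from 6.67 to 42.5 FPKM, and IGF2 at 1.02 (adjusted p = 0.0126), from 0.288 to 1.86 FPKM. DLK1 stood at 2.37 to 3.76 in C1 to C4 but at -0.07 in C5 and -0.77 in C6 (F test among the clones, adjusted p = 2.46e-08). IGF2 did not pass that F test (adjusted p = 0.14).

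Among the lower genes, the smooth muscle actin ACTG2 stood at -2.53 (adjusted p = 0.0114), the endogenous retroviral locus ERVK-28 at -2.29 (adjusted p = 3.88e-05), and the piRNA pathway gene GTSF1 at -1.72 (adjusted p = 2.82e-06). The serpins SERPINB1 (-1.55, adjusted p = 0.0104) and SERPINF1 (-1.33, adjusted p = 0.0301) and the kinase gene MATK (-1.69, adjusted p = 6.16e-05) were also lower. SERPINF1 stood at -3.26 in C5 and -2.75 in C6, and between -0.01 and -0.9 in the other clones. These genes were chosen after their values were seen, and none of the differences was tested in other samples.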
